A study of Mus musculus with 4 samples.

Results

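Transcripts of the machinery of mitosis and chromosome segregation were measured in mouse embryonic fibroblasts that lacked or carried Med1, a subunit of the Mediator coactivator complex. The genes are a list of 46 regulators and parts of that machinery, with kinesin motors other than Cenpe left out. Every probe set annotated to one of these genes was taken. Of the 46, 43 had a probe set with a single gene symbol, 72 probe sets in all, out of 12393 genes on the array. Transcripts of Ccnb1, Fbxo5 and Espl1 are not analysed here, and these 3 genes enter only the promoter counts. The tested cells were labelled Med1-/- p53-/- and their controls Med1+/+ p53-/-, so that both genotypes lacked p53. Both were C57BL/6J fibroblasts of embryonic day 10 embryos, from 1 mating of a Med1+/- p53-/- male with a Med1+/- p53+/- female, grown in medium with fetal calf serum. Total RNA was hybridised to Affymetrix arrays, 2 per genotype. No label says that the replicate arrays were made from different embryos or cultures, so p-values reflect the spread among 4 arrays, which may be technical. Any other difference between the cultures cannot be told apart from genotype.

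A cell enters mitosis when cyclin B and Cdk1 become active, with Polo-like and Aurora kinases acting around them. Condensin and topoisomerase II then compact and disentangle the chromosomes, kinetochores attach them to the spindle, and a checkpoint holds back the anaphase-promoting complex (APC/C) until every chromosome is attached. The APC/C with Cdc20 next marks securin and cyclin B for destruction, sister chromatids part, and the cell divides. Transcripts of this machinery peak in G2 and mitosis, and in proliferating fibroblasts they are among the best known markers of cycling cells. In dividing cells these promoters are switched on by B-Myb, FoxM1 and NF-Y and in resting cells held down by the DREAM complex, through CCAAT boxes and an element named the cell cycle genes homology region (CHR).

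The Med1 signal was 25.4 and 40.2 on the Med1-/- arrays, against 664.6 and 885.6 on the Med1+/+ arrays, on the brightest Med1 probe set as deposited. The deposited signals had no common scale, with medians of 36.1 and 51.4 on the Med1-/- arrays against 76.25 and 106.65 on the Med1+/+ arrays, and were quantile normalized. All levels below are log2(normalized intensity + 1.7) and all changes are Med1-/- minus Med1+/+ on that scale, which compares each gene with the rest of its array. Across features, arrays correlated at 0.985 between the Med1-/- pair, 0.990 between the Med1+/+ pair and 0.823 to 0.835 between genotypes. Of 13 fibroblast and mesenchyme markers, 12 passed the filter on dim probe sets, and only Lum did not. Marker lists moved with genotype, fibroblast markers included. Of the 12 tested, 6 were called higher (50%) and 3 lower (25%), where 39.1% and 36.2% of all features were. Pdgfra (-2.95), Prrx1 (-2.89) and S100a4 (-2.68) fell, and Col1a1 had the largest rise (1.98). The summed normalized signal of these 13 markers was 59277 and 55813 on the Med1-/- arrays against 52918 and 48853 on the Med1+/+ arrays. Of 6 epithelial markers tested 5 fell (83.3%, against 36.2% of all features). These were Cdh1 (-4.50), Krt18 (-4.45), Dsg2 (-4.39), Dsp (-3.92) and Krt8 (-1.96), while Krt19 rose by 1.61, and the list median was -4.16. The sum over all 10 epithelial markers, 2359 and 2729 on the Med1-/- arrays against 5046 and 5225 on the Med1+/+ arrays, joins these opposite directions. The filter took the mean over all 4 arrays, so a marker could be tested through its Med1+/+ signal. Dsg2 (deposited 9.5 and 11.6) and Cdh1 (22.8 and 20) lay below the medians of the Med1-/- arrays. The count of falls and the list median include both. All 7 muscle markers tested were higher, where 39.1% of all features were. Among them, Actc1 passed the filter under quantile normalization but not under the other scalings described below. The sum over 8 muscle markers was 32384 and 30760 on the Med1-/- arrays against 14072 and 13692 on the Med1+/+ arrays. No epithelial or muscle marker was listed at 0 on any array, although Epcam, Cldn3, Cldn4, Cldn7 and Myh11 did not pass the filter. The part of these markers in the results below was not tested.

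The mitosis genes split by genotype in opposite directions. In Med1-/- cells, 24 of the 43 were lower and 13 higher at an adjusted p under 0.05 (limma with Benjamini-Hochberg adjustment over 8923 features), and 6 did not pass. Over all features 36.2% were lower and 39.1% higher, against 55.8% and 30.2% of the mitosis genes. In all 75.3% of features were called, and 86.0% of the mitosis genes. The median change of the mitosis genes was -0.67, against 0.09 over all features. At least 2-fold differences were found for 19 falls and 4 rises, which is 53.5% of the mitosis genes, against 40.4% of all features. On 39 of the 43 (90.7%) the 2 genotypes did not overlap, against 88.2% of all features. Plk1 had the largest rise, to 3.60 times the Med1+/+ level, followed by Cdc20 (2.66-fold), Cdc25b (2.58-fold), Aurka (2.30-fold) and Ube2c (1.96-fold). Cenph (4.49-fold lower), Cenpf (3.79-fold), Top2a (3.44-fold), Aspm (3.14-fold) and Ncapg (2.96-fold) had the largest falls. In RNA from bulk cultures, the share of cells in mitosis and the RNA per mitotic cell cannot be told apart. This holds for falls and rises alike.

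**Figure D1:**
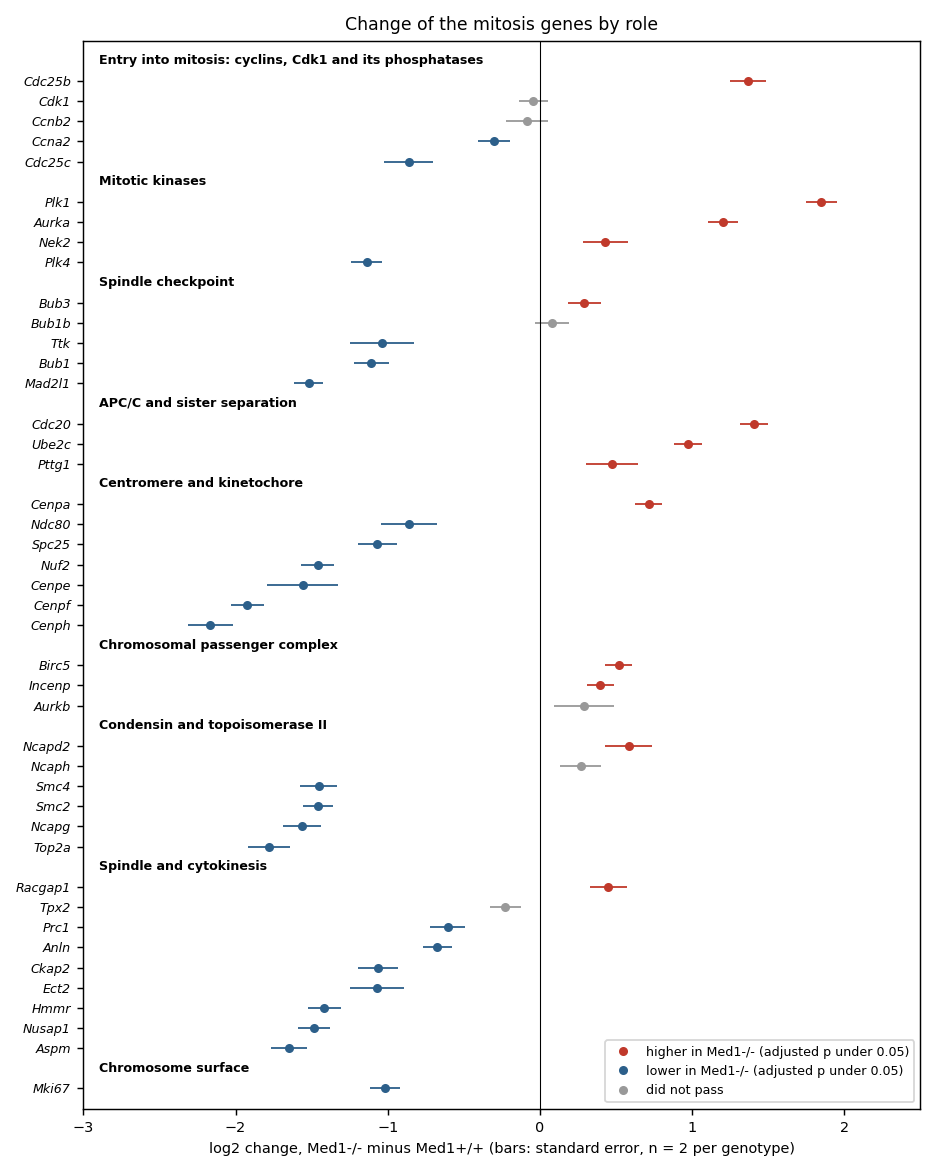
Log2 change, Med1-/- minus Med1+/+, of the 43 mitosis genes grouped by role, as points with standard errors (n = 2 arrays per genotype). Plk1, Aurka, Nek2, Cdc20, Ube2c and Pttg1 lie to the right of 0, and most kinetochore, condensin, checkpoint and spindle genes lie to the left.

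The promoters of 6 of these genes are shown because their transcripts moved in opposite directions, the 3 largest rises (Plk1, Cdc20 and Cdc25b) before the 3 largest falls (Cenph, Cenpf and Top2a), while the elements known from this gene family occur on both sides. Each is the RefSeq window of GRCm38.p6 from 250 bases before to 50 bases after the start site, 5' to 3' on the gene's strand. Capitals mark TTTGAA or TTTAAA, the core letters of the CHR, and CCAAT, the NF-Y box, each searched on both strands.
Plk1 (chr7:122159185-122159484, plus strand): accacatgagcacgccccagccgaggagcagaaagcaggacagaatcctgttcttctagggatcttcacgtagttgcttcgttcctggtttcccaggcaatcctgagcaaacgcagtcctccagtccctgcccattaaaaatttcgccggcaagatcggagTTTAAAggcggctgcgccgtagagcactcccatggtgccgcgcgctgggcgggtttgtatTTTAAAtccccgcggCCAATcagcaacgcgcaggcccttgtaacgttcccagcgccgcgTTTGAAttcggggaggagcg
Cdc20 (chr4:118437294-118437593, minus strand): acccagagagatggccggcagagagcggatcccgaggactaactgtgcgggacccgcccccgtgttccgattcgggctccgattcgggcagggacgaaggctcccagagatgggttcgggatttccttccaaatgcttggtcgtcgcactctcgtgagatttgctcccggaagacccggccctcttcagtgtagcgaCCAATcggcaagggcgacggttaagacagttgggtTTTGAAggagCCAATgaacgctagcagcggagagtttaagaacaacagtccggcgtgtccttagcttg
Cdc25b (chr2:131186698-131186997, plus strand): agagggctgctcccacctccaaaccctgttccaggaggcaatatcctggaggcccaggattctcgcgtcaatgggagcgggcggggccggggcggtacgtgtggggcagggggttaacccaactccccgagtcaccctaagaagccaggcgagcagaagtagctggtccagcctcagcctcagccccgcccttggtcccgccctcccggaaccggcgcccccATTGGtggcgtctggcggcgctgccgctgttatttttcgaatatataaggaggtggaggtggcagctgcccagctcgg
Cenph (chr13:100775850-100776149, minus strand): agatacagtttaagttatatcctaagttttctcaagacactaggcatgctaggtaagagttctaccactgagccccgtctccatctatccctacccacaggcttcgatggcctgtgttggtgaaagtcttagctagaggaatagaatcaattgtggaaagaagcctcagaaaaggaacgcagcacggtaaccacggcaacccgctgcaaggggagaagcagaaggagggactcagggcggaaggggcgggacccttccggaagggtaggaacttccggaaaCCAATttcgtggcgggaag
Cenpf (chr1:189688037-189688336, minus strand): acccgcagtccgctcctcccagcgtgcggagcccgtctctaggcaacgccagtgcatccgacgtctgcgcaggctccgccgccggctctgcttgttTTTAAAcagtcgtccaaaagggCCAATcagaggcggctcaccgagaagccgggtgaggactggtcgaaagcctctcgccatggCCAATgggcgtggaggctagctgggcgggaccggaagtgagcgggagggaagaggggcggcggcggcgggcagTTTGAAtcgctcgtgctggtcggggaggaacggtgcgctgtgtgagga
Top2a (chr11:99024140-99024439, minus strand): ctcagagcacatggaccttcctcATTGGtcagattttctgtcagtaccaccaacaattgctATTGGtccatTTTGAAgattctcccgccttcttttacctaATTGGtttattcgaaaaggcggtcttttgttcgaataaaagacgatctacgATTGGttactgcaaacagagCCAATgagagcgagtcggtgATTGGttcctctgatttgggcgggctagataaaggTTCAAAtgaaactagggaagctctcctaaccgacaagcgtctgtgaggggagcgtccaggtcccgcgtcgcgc

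The Plk1 window held TTTGAA once and TTTAAA at 2 places, and that of Cdc20 held TTTGAA once, centred 15 bases upstream of the start site. The Cenpf window held TTTGAA once, centred 5 bases downstream of the start, and TTTAAA once. Top2a had TTTGAA at 2 places and CCAAT at 6, the most of these windows. The windows of Cdc25b and Cenph held neither CHR core and CCAAT once each, so the risers and the fallers each included a window without the core letters. RefSeq promoter windows were found for 40 of the 46 genes, and TTTGAA or TTTAAA was present for 31 of them (77.5%), against 30.6% of all 27025 genes in the table. CCAAT was present for 31 as well (77.5%, against 41.1%), and both together for 27 (67.5%, against 12.2%). The share with a CHR core was 75% among the 12 higher genes with a window and 76.2% among the 21 lower genes, and that with CCAAT 83.3% and 71.4%. E2F sites written as TTTCCCGC or TTTGGCGC were found for 2 of the 40 genes (5%), against 1.80% of all genes. These are letter matches in a window, overlapping matches were each counted, and the table also holds genes that were not tested on the arrays.

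Genes that drive entry into mitosis differed among themselves. Cdc25b, which encodes a phosphatase that activates Cdk1, had levels of 9.60 and 9.39 in Med1-/- cells against 8.12 and 8.15 in Med1+/+ cells, a change of 1.37 (SE 0.12; adjusted p = 9.82e-05 by limma, 2 arrays per genotype). Cdc25c, the related phosphatase, had 6.32 and 6.52 in Med1-/- cells against 7.30 and 7.26 in Med1+/+ cells, a change of -0.86 (SE 0.16). The 2 phosphatase genes thus moved in opposite directions, each without overlap between the genotypes. Cdk1 itself, at 11.12 and 11.20 against 11.23 and 11.18, and Ccnb2, the cyclin B2 gene, at 9.91 and 9.64 against 9.97 and 9.74, overlapped between Med1-/- and Med1+/+ cells and did not pass (changes of -0.04 and -0.08). Ccna2, the cyclin A2 gene, was called lower on its brightest probe set (-0.30, SE 0.10, adjusted p = 0.0354, limma), but in the fit of single probe sets its other one was called higher (0.30, adjusted p = 0.0313, limma). It was the only gene of the 43 with probe sets called in opposite directions. Its call on the brightest probe set was also lost when any array other than Med1+/+ replicate 2 was left out (highest adjusted p = 0.207, limma, change -0.22, without Med1+/+ replicate 1).

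Of 4 further mitotic kinase genes, 3 rose (75%) and 1 fell (25%), where 39.1% and 36.2% of all features did. Plk1, the Polo-like kinase of mitotic entry, spindle assembly and cytokinesis, had 10.82 and 10.75 in Med1-/- cells against 8.96 and 8.90 in Med1+/+ cells, a change of 1.85 (SE 0.10; adjusted p = 3.15e-05, limma). Before normalization its signal was 1133.3 and 1582.3 on the Med1-/- arrays against 533.9 and 714.2 on the Med1+/+ arrays, so it was higher in Med1-/- even on the dimmer arrays. Aurka, the centrosomal Aurora kinase gene, had 10.61 and 10.60 against 9.43 and 9.38 (1.20, SE 0.10). Nek2, a kinase gene of centrosome separation, rose by 0.43 (SE 0.15, adjusted p = 0.0325), a call lost without Med1-/- replicate 2 (adjusted p = 0.129, limma) or without Med1+/+ replicate 1 (adjusted p = 0.185, limma). Plk4, which starts centriole duplication, fell by 1.14 (SE 0.10), with 8.67 and 8.73 in Med1-/- cells against 9.87 and 9.82 in Med1+/+ cells. All 3 of its probe sets above the filter were called lower, with changes from -1.14 to -0.49.

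The APC/C activator gene Cdc20 and its enzyme gene Ube2c rose under quantile normalization, as did Pttg1, whose sign depended on the scaling. Cdc20, the activator that brings substrates to the APC/C in mitosis, had 13.16 and 13.18 in Med1-/- cells against 11.83 and 11.69 in Med1+/+ cells (1.41, SE 0.09; adjusted p = 4.34e-05, limma). Its other 2 probe sets were called higher as well, with changes of 1.54 and 1.76. Ube2c, the ubiquitin-conjugating enzyme of the APC/C, had 12.80 and 12.69 in Med1-/- cells against 11.76 and 11.79 in Med1+/+ cells (0.97, SE 0.09). Pttg1, which encodes the separase inhibitor securin, had 11.75 and 11.35 against 11.25 and 10.91 (0.47, SE 0.17; adjusted p = 0.0393, limma). The lowest Med1-/- value of Pttg1 thus lay close above the highest Med1+/+ value, its 2 dimmer probe sets differed in sign (-0.48 and 0.48) without passing, and its call was lost without Med1-/- replicate 1 (change 0.27, adjusted p = 0.189, limma) or Med1+/+ replicate 2 (change 0.30, adjusted p = 0.193, limma). Of 11 subunits and partners of the APC/C on a separate list, 3 were higher (27.3%), 4 lower (36.4%) and 4 did not pass. Over all features 39.1% were higher and 36.2% lower, and the median change of the list was -0.07. Fzr1, the gene of the other APC/C activator Cdh1, rose by 1.25, Anapc11, the catalytic RING subunit gene, by 1.17 and Anapc2 by 1.06, whereas Anapc4 fell by 1.71.

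Spindle checkpoint genes were lower in 3 of 5 cases (60%), against 36.2% of all features. Mad2l1, which encodes the Mad2 inhibitor of Cdc20, had 9.70 and 9.72 in Med1-/- cells against 11.26 and 11.20 in Med1+/+ cells (-1.52, SE 0.10; adjusted p = 4.10e-05, limma). Bub1 (-1.11, SE 0.11) and Ttk (-1.04, SE 0.21), the kinase genes that recruit the checkpoint to kinetochores, fell too. Bub1b, which encodes the checkpoint protein BubR1, had 8.93 and 8.80 against 8.80 and 8.77 and did not pass (0.08). Bub3, the partner of both Bub kinases, was called higher (0.29, adjusted p = 0.0428, limma), and its second probe set above the filter gave 1.16, but the first call was lost without either Med1-/- array or without Med1+/+ replicate 2 (highest adjusted p = 0.256, limma, change 0.18). The checkpoint genes therefore ranged from -1.52 to 0.29, while the gene of their target, Cdc20, changed by 1.41.

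Among 7 centromere and kinetochore genes 6 fell (85.7%) and 1 rose (14.3%), where 36.2% and 39.1% of all features did. Cenph, an inner kinetochore gene, had 5.93 and 6.09 in Med1-/- cells against 8.14 and 8.21 in Med1+/+ cells (-2.17, SE 0.15; adjusted p = 4.75e-05, limma), the largest change in size of the 43. Cenpf, which encodes a large coiled-coil protein of the outer kinetochore, had 7.79 and 7.84 against 9.79 and 9.69 (-1.92, SE 0.11). Its second, dimmer probe set gave -0.45 and did not pass. Cenpe, the kinesin-like motor of the kinetochore, had 6.73 and 7.38 against 8.44 and 8.79 (-1.56, SE 0.23), with the widest replicate spread of all 43 in Med1-/- cells. Nuf2, of the Ndc80 complex that binds microtubules, had 8.08 and 8.11 against 9.52 and 9.59 in Med1+/+ cells (-1.46, SE 0.11). Its partners in that complex fell less, Spc25 by 1.07 (SE 0.13) and Ndc80 by 0.86 (SE 0.18). Cenpa, the histone H3 variant that marks centromeres, went the other way, at 11.46 and 11.44 in Med1-/- cells against 10.75 and 10.71 in Med1+/+ cells (0.71, SE 0.09; adjusted p = 0.000407, limma). The other kinetochore genes on a separate list moved both ways, with 6 higher (31.6%) and 8 lower (42.1%) of 19. Over all features 39.1% were higher and 36.2% lower, and the median of the list was -0.22. Cenpk (-2.29), which encodes a partner of Cenp-H, and Cenpc1 (-1.76), also of the inner kinetochore, fell. Cenpb, which encodes a centromere DNA-binding protein, rose by 2.25. Mad2l2, a Mad2-like gene that the list also held, rose by 1.76.

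The chromosomal passenger complex, which corrects faulty attachments, had small changes. Birc5, its survivin subunit gene, had 11.47 and 11.50 in Med1-/- cells against 10.97 and 10.96 in Med1+/+ cells (0.52, SE 0.09; adjusted p = 0.00174, limma), and Incenp, the scaffold gene, rose by 0.40 (SE 0.09). Aurkb, its kinase gene, had 8.45 and 8.97 against 8.28 and 8.57 and did not pass on its brightest probe set (0.29, adjusted p = 0.218, limma). A second Aurkb probe set was called higher (0.58, adjusted p = 0.00367, limma, single probe sets), and the first passed without Med1-/- replicate 1 (0.55, adjusted p = 0.0205, limma).

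Condensin subunits did not move together. Smc2 and Smc4, the ATPase core of condensin, fell by 1.46 (SE 0.10) and 1.45 (SE 0.12). Smc2 had 9.31 on both Med1-/- arrays against 10.76 and 10.78 on the Med1+/+ arrays, and all 3 Smc4 probe sets were called lower, from -1.73 to -1.45. Ncapg, of the condensin I arm, had 7.17 and 7.15 in Med1-/- cells against 8.80 and 8.65 in Med1+/+ cells (-1.56, SE 0.12), but its second probe set gave -0.34 and did not pass. The 2 other condensin I subunit genes ran the other way, Ncapd2 with 9.44 and 9.77 against 8.89 and 9.16 (0.58, SE 0.16; adjusted p = 0.0121, limma) and Ncaph with 0.27, which did not pass on its brightest probe set. The second Ncaph probe set was called higher (0.34, adjusted p = 0.0441, limma, single probe sets). Without Med1-/- replicate 2 the Ncapd2 call was lost (adjusted p = 0.0516, limma), as it was without Med1+/+ replicate 1 (adjusted p = 0.068, limma), and without Med1+/+ replicate 2 Ncaph passed (adjusted p = 0.047, limma). Of condensin II, Ncapg2 fell by 1.84 and Ncaph2 rose by 1.35. Top2a, the topoisomerase that disentangles sister chromatids, had 10.01 and 9.64 in Med1-/- cells against 11.60 and 11.61 in Med1+/+ cells (-1.78, SE 0.14; adjusted p = 6.20e-05, limma).

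Genes of the spindle and of cytokinesis were lower in 7 of 9 cases (77.8%), against 36.2% of all features. Aspm, a spindle pole gene known from microcephaly, had 7.99 and 7.83 in Med1-/- cells against 9.58 and 9.55 in Med1+/+ cells (-1.65, SE 0.12), and Nusap1, a microtubule bundler, had 8.33 on both Med1-/- arrays against 9.83 and 9.79 on the Med1+/+ arrays (-1.48, SE 0.10). Hmmr (-1.42), which encodes a spindle protein and hyaluronan receptor, fell as well, although only 2 of its 4 probe sets above the filter were called. Ect2 (-1.07, SE 0.18), the exchange factor that switches on RhoA at the division plane, Ckap2 (-1.06), Anln (-0.67), the anillin scaffold gene of the contractile ring, and Prc1 (-0.61), which bundles the central spindle, fell by less. Tpx2, the activator of Aurora A, had 9.34 and 9.44 against 9.60 and 9.63 and did not pass (-0.23, adjusted p = 0.0841, limma), so the kinase gene Aurka passed at 1.20 while its activator gene did not pass. Racgap1, the centralspindlin subunit that recruits Ect2, had 9.78 and 10.04 in Med1-/- cells against 9.45 and 9.47 in Med1+/+ cells (0.45, SE 0.12; adjusted p = 0.013, limma), and 1.51 on its second probe set. The first of these calls was lost without Med1-/- replicate 2 (adjusted p = 0.0733, limma) or without Med1+/+ replicate 1 (adjusted p = 0.0519, limma). Mki67, the proliferation marker Ki-67 that coats mitotic chromosomes, had 9.47 and 9.43 in Med1-/- cells against 10.45 and 10.49 in Med1+/+ cells (-1.02, SE 0.10).

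**Figure D2:**
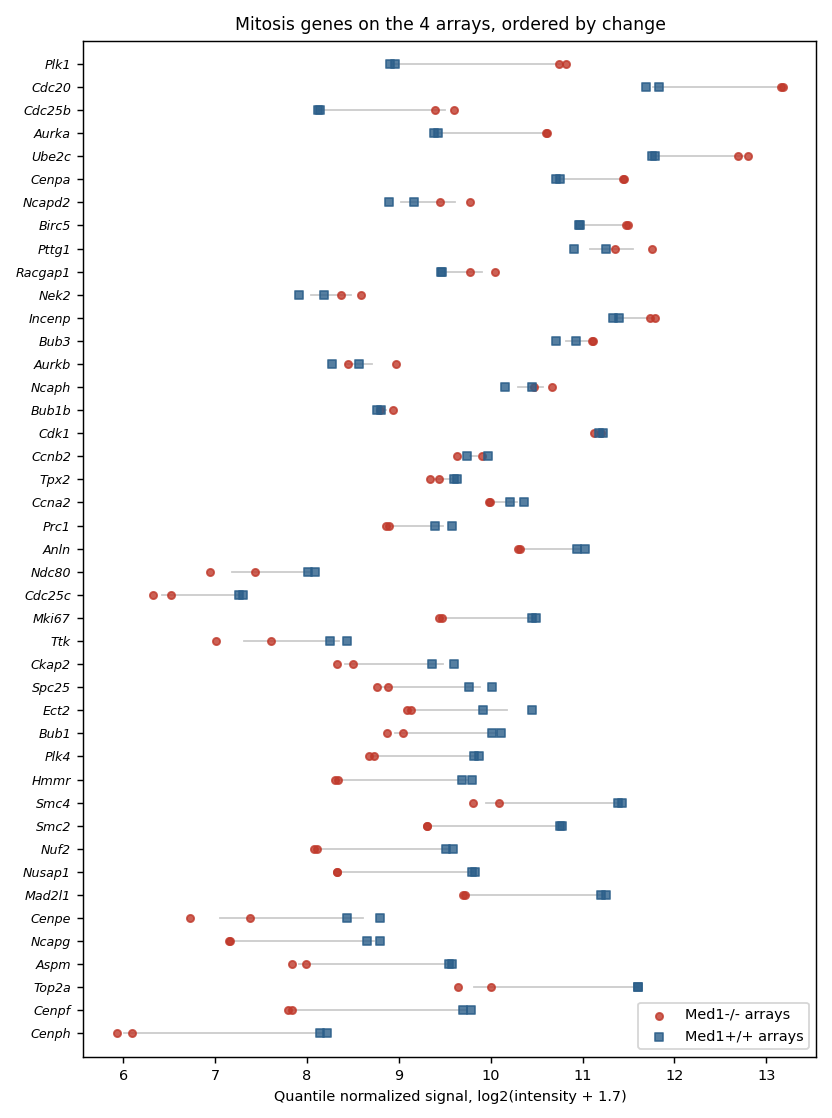
Normalized log2 signal of the 43 genes on each array, Med1-/- arrays as circles and Med1+/+ arrays as squares, with a line between the group means, ordered by change from Plk1 to Cenph. The genotypes overlap for Bub1b, Aurkb, Cdk1 and Ccnb2 and are apart for the other 39.

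Across these genes the 2 arrays of a genotype lay close together, with a median SD of 0.067 in Med1-/- cells (highest 0.458, for Cenpe) and 0.052 in Med1+/+ cells (highest 0.380, for Ect2). Of 68 probe sets above the filter, 21 were higher and 30 lower when each was tested on its own, where 36.3% and 35.3% of all probe sets were. Of 18 genes with several such probe sets, 15 had changes of a single sign, and Ccna2, Hmmr and Pttg1 did not. A dimmer probe set of the same sign did not pass for Cenpf (-0.45), Aspm (-0.95), Spc25 (-0.91) and Prc1 (-0.38), among others. For 8 of the 43 genes the brightest probe set had an _s_at or _x_at identifier and could match other transcripts, among them Cdc20, Plk4 and Aurkb.

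**Figure D3:**
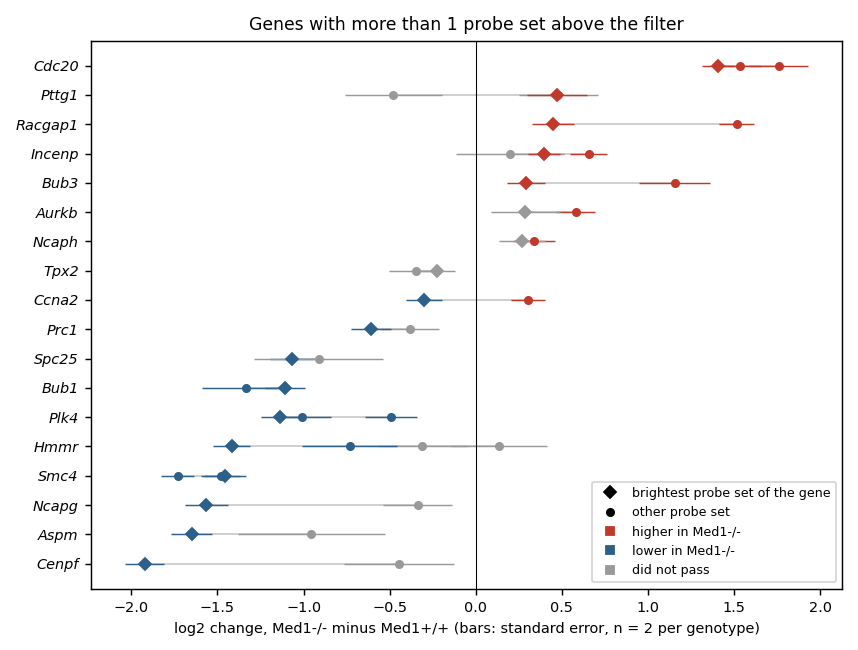
Log2 change, Med1-/- minus Med1+/+, of each probe set of the 18 genes with more than 1 above the filter, with standard errors (n = 2 arrays per genotype); diamonds are the brightest probe sets. Ccna2 has 1 probe set on each side of 0, and the 2 of Racgap1 lie at 0.45 and 1.51.

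Where zero lies depended on how the arrays were scaled. With medians or 75th percentiles set equal, in the values as deposited, and after scaling on the hybridisation controls, the median of all features was 0.30, 0.11, -0.76 and -0.77, against 0.09 after quantile normalization. Relative to that median, 15 of the 43 genes lay above it and 27 below it under all 5 scalings, and Cdk1 alone changed side. In sign, 23 genes were lower in Med1-/- cells under all 5, and 6 were higher, Plk1, Cdc20, Ube2c, Aurka, Cdc25b and Cenpa. The other 14, among them Birc5, Incenp, Ncapd2 and Racgap1, changed sign with the scaling. Of the calls among the 43 genes 35.1% were higher after quantile normalization, 41.0% and 37.8% with medians or 75th percentiles set equal, 8% in the deposited values and 13.5% on the hybridisation controls. In the values as deposited Plk1 (1.11, adjusted p = 0.0374, limma) and Cdc20 (1.01, adjusted p = 0.00598) were still called higher, and Aurka, Cdc25b, Ube2c and Cenpa were not. By role, relative to all features, the medians under the 5 scalings were 0.73 to 0.76 for the mitotic kinases. Cdc20, Ube2c and Pttg1 had 0.88 to 1.33, and the passenger complex 0.31 to 0.63. The separate list of APC/C subunits and partners had -0.16 to 0.01. The medians were -1.58 to -1.55 for the kinetochore genes, -1.55 to -1.42 for condensin and topoisomerase II, -1.15 to -1.13 for the checkpoint and -1.15 to -1.11 for the spindle genes.

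**Figure D4:**
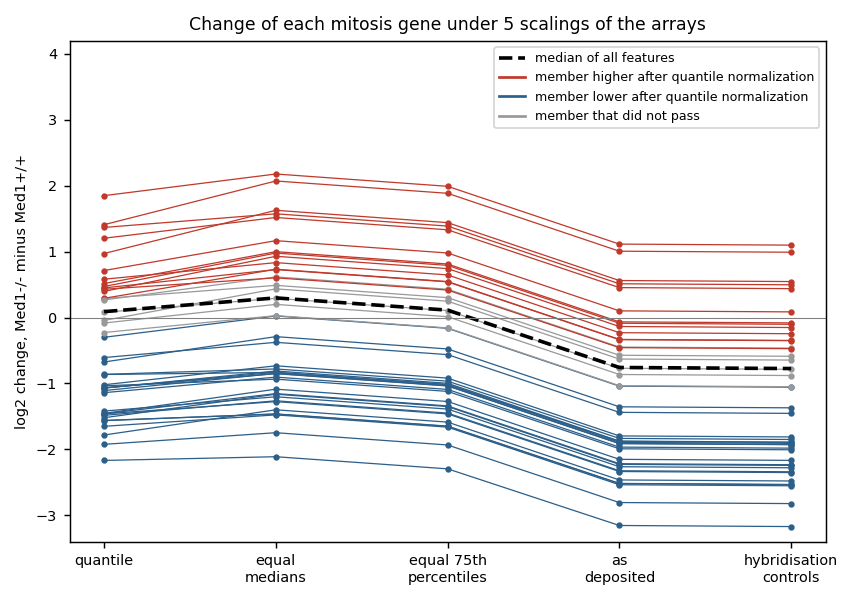
Log2 change, Med1-/- minus Med1+/+, of each of the 43 genes under 5 scalings of the arrays, coloured by the call after quantile normalization, with the median of all features as a dashed line. The lines shift with the dashed line, which runs from 0.30 down to -0.77, but not all by the same amount. From quantile normalization to equal medians the dashed line moves from 0.09 to 0.30, Cdc20 from 1.41 to 2.07 and Cenph from -2.17 to -2.11. Cdk1 crosses the dashed line.

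The genes also differed in genomic length, which played no part in their choice. Higher genes had a median length of 11.5 kb (3.0 to 31.2 kb), and lower genes one of 31.0 kb (5.9 to 61.0 kb). Over the 43 genes the change correlated with genomic length at a Spearman rho of -0.57, as a description across genes of the same arrays, and over 7867 features at -0.26. Among the 20 genes under 20 kb, 10 were higher (50%) and 7 lower (35%), where 50.5% and 25.6% of all features of that length were. Their median was 0.29, against 0.45 for those features. Among the 23 longer genes, 3 were higher (13.0%) and 17 lower (73.9%), where 30.9% and 44.6% of all features of that length were. Their median was -1.07, against -0.24 for those features. Mad2l1 (5.9 kb, -1.52) and Cenph (16.2 kb, -2.17) were short genes that fell. With length taken out of each array by a spline, 11 genes were higher and 24 lower. Under it Birc5 (0.13), Bub3 (0.03), Pttg1 (0.10) and Nek2 (0.17) no longer passed, whereas Bub1b (0.29) and Ncaph (0.37) did. Relative to all features, the role medians were then 0.55 for the mitotic kinases, 0.46 for Cdc20, Ube2c and Pttg1 and 0.08 for the passenger complex. They were -1.35 for the kinetochore genes, -1.33 for condensin and topoisomerase II, -0.91 for the checkpoint and -0.85 for the spindle genes.

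**Figure D5:**
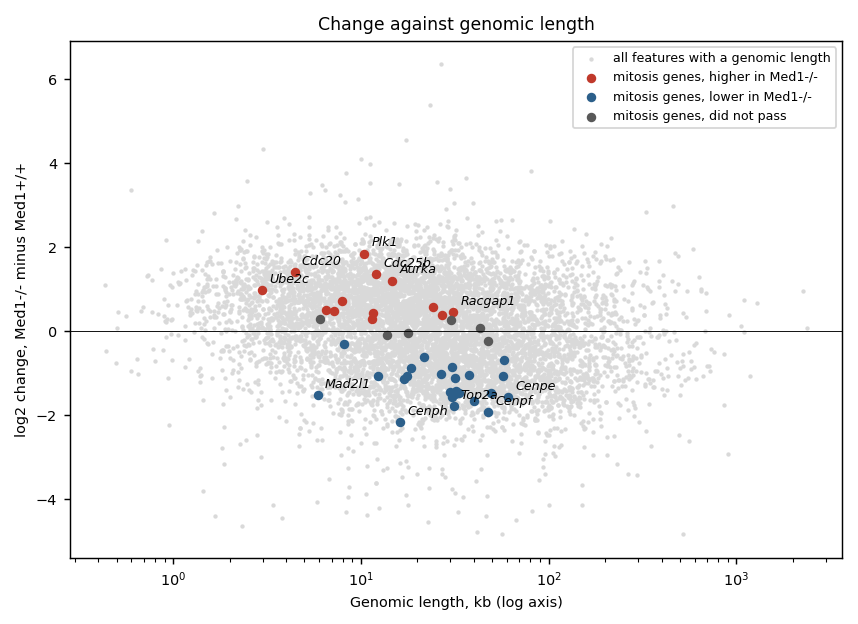
Log2 change, Med1-/- minus Med1+/+, against genomic length in kb (log axis) for the 43 mitosis genes and, in grey, all features with a known length. Genes that rose, such as Ube2c (3.0 kb) and Cdc20 (4.4 kb), mostly lie to the left. Cenpf (47.5 kb) and Cenpe (61.0 kb), which fell, lie to the right. Exceptions include the short genes Mad2l1 and Cenph, which fell, and the longer gene Racgap1 (31.2 kb), which rose.

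The transcription factors of these promoters were measured on the same arrays. Of 18 cell cycle transcription factors and DREAM complex genes, 8 were higher (44.4%) and 5 lower (27.8%), where 39.1% and 36.2% of all features were. Their median of 0.18 lay above or below that of all features depending on the scaling. Mybl2, the B-Myb gene, rose by 1.93 (SE 0.21), E2f1 by 1.88, E2f8, a repressor of the E2F family, by 1.48 and Foxm1 by 1.32, all 4 higher under each of the 5 scalings. Rbl1 (-1.46) and Rbl2 (-1.37), the p107 and p130 pocket protein genes, and Lin9 (-1.20), of the MuvB core shared by DREAM and the B-Myb complex, were lower under each scaling. Foxm1, Rbl2 and Lin9 were chosen after their values were seen. Of 13 other regulators of CDKs and cyclins, 7 were higher (53.8%) and 4 lower (30.8%). Pkmyt1 (1.60), which encodes an inhibitory kinase of Cdk1, Gtse1 (1.37) and Ccnd3 (1.33) rose, and Ccne2 (-1.51), a cyclin E gene, fell. Of 6 CDK inhibitor genes 3 were higher (50%), Cdkn1a (2.58), Cdkn2c (1.43) and Cdkn2d (1.19), and 1 was lower (16.7%), Cdkn2b (-0.61).

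Genes of DNA replication, the neighbouring phase of the cycle, moved both ways, with 13 higher and 14 lower of 34. These shares of 38.2% and 41.2% lay near the 39.1% and 36.2% of all features. The median of the list was 0.07, against -0.67 for the 43 mitosis genes, of which 13 were higher and 24 lower. Pold1, a DNA polymerase delta gene, rose by 1.53, and Cdt1, which licenses origins, by 1.41. Orc6, of the origin recognition complex, fell by 1.67, and Rfc1, of the clamp loader, was lower at 7.35 and 7.58 in Med1-/- cells against 9.43 and 9.50 in Med1+/+ cells. The difference between these sets of genes was not tested.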

How the data were processed

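Gene expression was compared between 2 Med1-/- p53-/- and 2 Med1+/+ p53-/- arrays, grouped by the genotype in their labels. The deposited table gives a linear intensity for every probe set on each array. Biotin labelling used an Affymetrix in vitro transcription kit, per the labels' protocols, and the authors' way of summarising or scaling the probes is not given here. After 64 control probe sets were left out, 22626 were quantile normalized and put on the log2 scale after adding 1.7, which is the 10th percentile of the table. A filter at the 40th percentile of the mean removed 9050 probe sets, and of a gene's probe sets the brightest was used. Two-sided moderated tests of limma 3.58.1 (R 4.3.3), with eBayes following the trend of variance with intensity, covered 8923 features with Benjamini-Hochberg adjustment at 0.05, with 2 residual and 4.71 prior degrees of freedom. A second fit took 13576 probe sets singly. Symbols came from the platform annotation (20380 probe sets with 1 symbol, 691 with several, 1555 with none), updated through the RefSeq table of GRCm38.p6, which also gave genomic lengths and promoters.

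The genes, the lists and the settings were chosen with earlier results of these data known. All 43 genes could be named, and values on every array were due for the 10 largest rises, the 10 largest falls and genes with probe sets called both ways. Up to 4 called genes of each other list were named, by the largest change. Alternatives varied the filter, scaling, pseudocount, probe set, variance model, replicate block, threshold and the arrays left out, and an adjustment for genomic length was added after seeing the data. The fit was run on simulated data built from the normalized values, with few features changed, which did not test the scaling of the arrays. With 4 arrays, their number limits the precision.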

Additional observations from a re-analysis of the deposited data

How the results depend on the processing

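The 24 falls and 13 rises among the mitosis genes were recomputed under each alternative. The falls numbered 19 to 32 throughout. The rises numbered 2 without any scaling, 5 with arrays scaled on the hybridisation controls, 4 with at least a 2-fold change and 8 at an adjusted p under 0.01, and 10 to 16 under the others that kept all 4 arrays. Over all features the 6722 calls became 4109 in the deposited values and 3605 with a 2-fold change. Leaving out 1 array at a time gave changes of 1.82 to 1.88 for Plk1 and -2.25 to -2.09 for Cenph. The ranges were wider for Pttg1 (0.27 to 0.67) and Aurkb (0.026 to 0.55). In these fits the lone array of a genotype is assumed to vary like those of the other. In the deposited values Nek2 (-0.46), Bub3 (-0.33), Pttg1 (-0.086), Incenp (-0.14), Birc5 (-0.065), Ncapd2 (-0.23) and Racgap1 (-0.34) turned to the other sign without passing, as did 3 genes that had not passed before, Bub1b (-0.77), Aurkb (-0.57) and Ncaph (-0.45). On the hybridisation controls the same 7 turned to -0.47, -0.35, -0.10, -0.15, -0.081, -0.24 and -0.35 in that order, of which Nek2 and Bub3 passed as lower, and Bub1b, Aurkb and Ncaph turned to -0.78, -0.59 and -0.46 and passed as lower. With medians set equal Ccna2 (0.024) and Cdk1 (0.44, passing as higher) turned, as did Ccnb2 (0.20) and Tpx2 (0.030) without passing. With 75th percentiles set equal Cdk1 (0.25) and Ccnb2 (0.013) also changed sign. With the mean of a gene's probe sets Ccna2 turned (0.0017). The cause was not tested beyond the shift of the median of all features. The filter at the 60th percentile removed 1 of the 43 genes. With a replicate block 15 were higher, 25 lower, 59 probe sets and 7325 features called. The labels give no pairing behind the shared numbers, and the deviations of same-numbered arrays correlated at 0.27.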

Other observations

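Genes that hold sister chromatids together and organise the spindle poles, which were on lists apart from the 43 mitosis genes, were mostly lower in Med1-/- cells. Of 11 cohesin genes and regulators 8 were lower and 2 higher (limma, adjusted p under 0.05), where 36.2% and 39.1% of all features were, and the median change was -0.99. Stag2 (-1.58) and Stag1 (-1.34), which encode alternative cohesin subunits, Smc3 (-1.41), of the cohesin ring, and Nipbl (-1.50), the cohesin loader gene, had the largest falls. Of 15 centrosome and spindle pole genes 9 were lower and 3 higher, with a median of -0.78. The augmin genes Haus2 (-1.66) and Haus3 (-1.40) and Cep55 (-1.26), a gene of the final cut of cell division, were lower, and the gamma-tubulin gene Tubg1 was higher (1.61). Relative to all features the medians lay between -1.15 and -1.08 for the cohesin list and between -1.06 and -0.87 for the centrosome list over the 5 scalings. With genomic length taken out of each array they were -0.92 and -0.51.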
